A study of Mus musculus with 21 samples.

Results

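The T-cell receptor is built from a clonal pair of alpha and beta chains and an invariant set of CD3 chains, and the 7 genes described here code for its unvarying parts. They were chosen by name: Cd3g, Cd3d, Cd3e and Cd247 for the CD3 gamma, delta, epsilon and zeta chains, Trac for the alpha constant region, and Trbc1 and Trbc2 for the 2 beta constant regions. All 7 were among the 12994 genes measured. RNA was measured in 21 samples of CD4+ or CD8+ T cells sorted from the spleen of 12 female C57BL6/J mice. Mice were kept from 4 weeks of age, for 4 weeks, either in an enriched environment (EE: large cages with many mice, running wheels, tunnels and toys that were changed) or in a standard environment (SE: smaller cages with fewer mice and no objects). There were 6 CD4+ EE samples, 5 CD4+ SE samples, 6 CD8+ EE samples and 4 CD8+ SE samples, and 9 mice (6 EE and 3 SE) gave both populations. No gene was altered and no agent was given in any group. The labels state that the animals of each environment shared a cage, so the cage and the environment cannot be told apart.

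The alpha and beta chains recognise peptide bound to MHC molecules but have almost no intracellular part of their own. Signals pass through the CD3 gamma-epsilon and delta-epsilon dimers and the zeta homodimer, whose tails carry tyrosine motifs (ITAMs) that the kinase Lck phosphorylates and the kinase ZAP-70 then binds. CD4 and CD8 are the coreceptors that bring Lck to the complex, and a chain missing from the complex generally keeps the rest from reaching the cell surface. The study's methods describe the sort as positive for surface CD3 and for CD4 or CD8 and negative for CD11b, so the presence of these transcripts follows from the gate and is not a finding.

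Each sample held 145546 to 190885 counted molecules in CD4+ T cells and 179008 to 221454 in CD8+ T cells, so depth differed between the populations. Values below are normalized counts, that is, molecules divided by the size factor of the sample. The coreceptor genes followed the labels: Cd4 was at 42.7 or more in every CD4+ sample and at 0.966 or less in every CD8+ sample, and Cd8a was at 3.09 or less and at 72.5 or more, respectively. Cd8b1 was detected in all 11 CD4+ samples, at 1.26 to 9.15 (1 to 10 molecules), and averaged 205 in CD8+ samples. The study's methods describe a check of purity that excluded CD4+ samples with non-zero Cd8a and Cd8b. Cd8a was detected in 5 of the 11 CD4+ samples here, and each of these also had Cd8b1, so the rule as worded was not met by all samples. How the check was applied to them is not known, and the match to the labels may in part follow from it. The B-cell markers measured (9 of a list of 12) summed to 35.0 to 302 (median 193) in CD4+ samples and 33.0 to 102 (median 46.1) in CD8+ samples. These sums rested mostly on Cd74, the MHC class II invariant chain, in CD4+ samples (mean 110, and 5.02 in CD8+ samples) and on Ighm, the IgM heavy chain, in CD8+ samples (mean 37.8, and 40.8 in CD4+ samples). Cd79b, a B-cell receptor signalling chain, averaged 9.55 and 5.92, and Ms4a1 was at 0 in every CD8+ sample. Markers of myeloid cells (5 of 8 measured, 11.4 to 62.2 in CD4+ and 14.1 to 47.1 in CD8+ samples) and of NK cells (3 of 6 measured, at most 7.80 and 4.85) overlapped between the populations. In such bulk samples fewer cells of a type and less RNA per cell cannot be told apart.

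Positions are those of GENCODE vM21 on GRCm38 (mm10), the build of the deposited values. Cd3g (ENSMUSG00000002033, chr9:44969572-44980431, minus strand, 7 exons) and Cd3d (ENSMUSG00000032094, chr9:44981786-44987339, plus strand, 5 exons) are divergent neighbours whose starts are 1355 bases apart. Cd3e (ENSMUSG00000032093, chr9:44998740-45009627, minus strand, 8 exons) lies next to them. Cd247 (ENSMUSG00000005763, chr1:165788681-165877277, plus strand, 8 exons) is on its own and overlaps 6 other annotated genes, among them Pou2f1 on the other strand. Trac (ENSMUSG00000076928, chr14:54220521-54224206, 4 exons) lies at the 3′ end of the alpha locus. Trbc1 (ENSMUSG00000076490, chr6:41538218-41539881) and Trbc2 (ENSMUSG00000076498, chr6:41546730-41548352) have 4 exons each and stand in tandem, 6849 bases apart.

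Each rearranged beta chain uses either Trbc1 or Trbc2, and how far reads can separate them depends on where they differ. Over 375 coding bases of exon 1 they differed at 1 position, base 260, an identity of 99.73%. Over the 143 coding bases of exons 2 to 4 they differed at 22 positions, an identity of 84.62%. A read that lies in exon 1 and does not cover base 260 therefore matches both genes, so the division between the genes is uncertain. The study's methods give default parameters for the counting tool and do not spell out how reads with several matches were treated. The stretch around base 260 (chr6:41538447-41538507 in Trbc1 and chr6:41546959-41547019 in Trbc2) and the joined coding parts of exons 2 to 4 (from chr6:41539114-41539662 and chr6:41547610-41548178) are shown 5′ to 3′ on the plus strand, with the differing bases in capitals.
Trbc1 exon 1: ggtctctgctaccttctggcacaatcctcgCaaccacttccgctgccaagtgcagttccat
Trbc2 exon 1: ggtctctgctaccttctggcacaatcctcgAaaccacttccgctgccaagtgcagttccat
Trbc1 exons 2 to 4: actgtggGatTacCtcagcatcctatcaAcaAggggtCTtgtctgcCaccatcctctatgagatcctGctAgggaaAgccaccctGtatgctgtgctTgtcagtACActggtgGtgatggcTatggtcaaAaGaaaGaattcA
Trbc2 exons 2 to 4: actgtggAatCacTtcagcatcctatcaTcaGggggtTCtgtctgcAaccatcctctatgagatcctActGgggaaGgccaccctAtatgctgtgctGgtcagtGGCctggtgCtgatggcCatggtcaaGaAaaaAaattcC

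**Figure D1:**
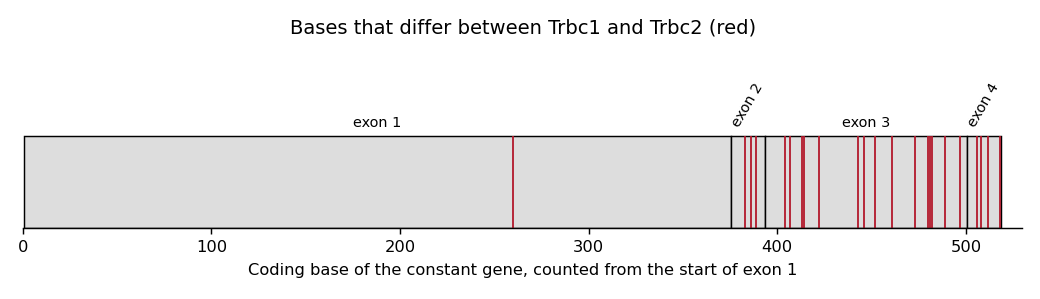
Map of the 518 coding bases of the beta constant genes, with exons as grey boxes along the coding position and a red line at each of the 23 bases that differ between Trbc1 and Trbc2. Of these lines, 1 stands in exon 1 and the other 22 in exons 2 to 4.

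The 4 CD3 genes have windows upstream of their starts in RefSeq (GRCm38.p6), and the 250 bases before each start are shown so that the 3 clustered genes can be set beside Cd247, whose level differed between the populations. Trac, Trbc1 and Trbc2 had no entry. For Cd3e the RefSeq start lies inside the GENCODE gene given above, so the last bases of its window fall within that gene. Capitals mark matches, on either strand, to 6 short motifs of factor families active in T cells or of the core promoter: AGGAAG for the ETS family, TGTGGT for the RUNX family, CAGGTG for an E-box, AGATAA for the GATA family, CTTTGA for the TCF/LEF family and TATAAA for the core promoter's TATA box. No 2 matches in these windows overlap. The sequences run 5′ to 3′ on the strand of the gene, at chr9:44980432-44980681 (Cd3g, minus), chr9:44981536-44981785 (Cd3d, plus), chr9:45009612-45009861 (Cd3e, minus) and chr1:165788431-165788680 (Cd247, plus).
Cd3g: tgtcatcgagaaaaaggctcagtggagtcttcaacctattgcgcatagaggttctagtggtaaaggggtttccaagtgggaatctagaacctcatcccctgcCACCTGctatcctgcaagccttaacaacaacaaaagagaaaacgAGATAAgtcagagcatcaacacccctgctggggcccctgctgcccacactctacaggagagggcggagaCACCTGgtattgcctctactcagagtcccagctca
Cd3d: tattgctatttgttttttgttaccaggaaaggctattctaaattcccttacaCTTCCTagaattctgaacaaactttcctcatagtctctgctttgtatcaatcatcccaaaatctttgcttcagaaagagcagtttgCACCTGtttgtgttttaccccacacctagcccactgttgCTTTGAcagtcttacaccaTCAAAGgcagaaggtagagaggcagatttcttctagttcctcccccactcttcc
Cd3e: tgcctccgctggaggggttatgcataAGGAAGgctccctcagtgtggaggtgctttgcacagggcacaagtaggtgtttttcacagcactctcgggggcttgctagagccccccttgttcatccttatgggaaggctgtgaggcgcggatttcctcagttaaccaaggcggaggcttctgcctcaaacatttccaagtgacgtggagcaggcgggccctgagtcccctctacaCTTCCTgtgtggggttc
Cd247: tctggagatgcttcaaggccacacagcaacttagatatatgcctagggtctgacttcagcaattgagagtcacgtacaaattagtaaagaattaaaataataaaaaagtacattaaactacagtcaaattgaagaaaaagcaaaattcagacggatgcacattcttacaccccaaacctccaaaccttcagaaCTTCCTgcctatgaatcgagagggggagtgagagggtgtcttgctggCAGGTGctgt

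The ETS letters occurred in the windows of Cd3d, Cd3e (2 matches) and Cd247, and in 29.5% of all 32851 windows of this length. The E-box letters occurred in those of Cd3g (2 matches), Cd3d and Cd247, against 17.2% of all windows. TCF/LEF letters had 2 matches in Cd3d (13.8% of all windows) and GATA letters once in Cd3g (9.99%). Neither RUNX (14%) nor TATA letters (12.4%) were found in these 4 windows. GC content was 41.2% for Cd247 and Cd3d, 51.6% for Cd3g and 57.2% for Cd3e, with a median of 52.4% over all windows. A match is a description of the letters only.

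The first comparison asked how the populations differed, with both environments weighed equally. Of the 7 genes, 1 differed, Cd247, and 6 did not pass the test, while 349 of all 7938 genes tested did (4.40%; limma on log2(normalized count + 1), adjusted p under 0.05 by Benjamini-Hochberg over all genes tested). All 7 genes were detected in 21 of 21 samples and passed the filter of a mean above 2. The median difference of the 7, CD4+ minus CD8+, was -0.05 on the log2 scale, and that of all genes tested was -0.01.

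Cd247, which codes for the zeta chain and its repeated ITAMs, was higher in CD4+ T cells. In CD4+ EE samples it ranged from 35.6 to 65.4 (median 45.3), and the CD4+ SE samples were at 39.1, 39.4, 41.1, 42.7 and 52.9. In CD8+ EE samples it ranged from 27.2 to 37.2 (median 32.1), and the CD8+ SE samples were at 29.8, 30.9, 31.7 and 36.5. The populations overlapped through 1 CD4+ EE sample: the other 10 of 11 CD4+ samples lay above every CD8+ sample. Means were 46.0 ± 8.72 (SD, n = 11) in CD4+ and 32.0 ± 3.35 (SD, n = 10) in CD8+ samples, from 28 to 61 molecules per sample. The fitted difference was 0.49 on the log2 scale (SE 0.13, 95% interval 0.23 to 0.74), or 1.40-fold (1.18 to 1.67), with an adjusted p of 0.0101 (limma, Benjamini-Hochberg).

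The difference in Cd247 was present in both environments and within mice. The ratio of the mean counts was 1.52 in EE mice, where 5 of 6 CD4+ samples lay above all CD8+ samples, and 1.34 in SE mice, where all 5 did. In all 9 mice that gave both populations the CD4+ sample was the higher one, by 0.28 to 1.19 on the log2 scale (median 0.38). In the order of group means (CD4+ EE, CD4+ SE, CD8+ SE, CD8+ EE) the step from CD4+ SE to CD8+ SE was the one without overlap. With the mouse as a block the difference was 0.48 (adjusted p = 0.0419, limma with Benjamini-Hochberg). B-cell RNA and depth moved with the population too. The CD4+ sample with the lowest B-cell sum, 35.0, had Cd74 at 10.3, above the CD8+ mean of 5.02. Its Cd247 count of 39.1 was the lowest of the CD4+ SE samples, and the highest CD8+ sample was at 37.2. The B-cell values here rest on 1 CD4+ library, and the part of B-cell RNA and of depth in the difference was not tested. Pou2f1, which lies on the other strand, averaged 8.79 ± 2.86 (SD, n = 11) where CD4+ T cells were sampled and 5.40 ± 3.46 (SD, n = 10) where CD8+ T cells were, and its part in the Cd247 count was not tested.

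**Figure D2:**
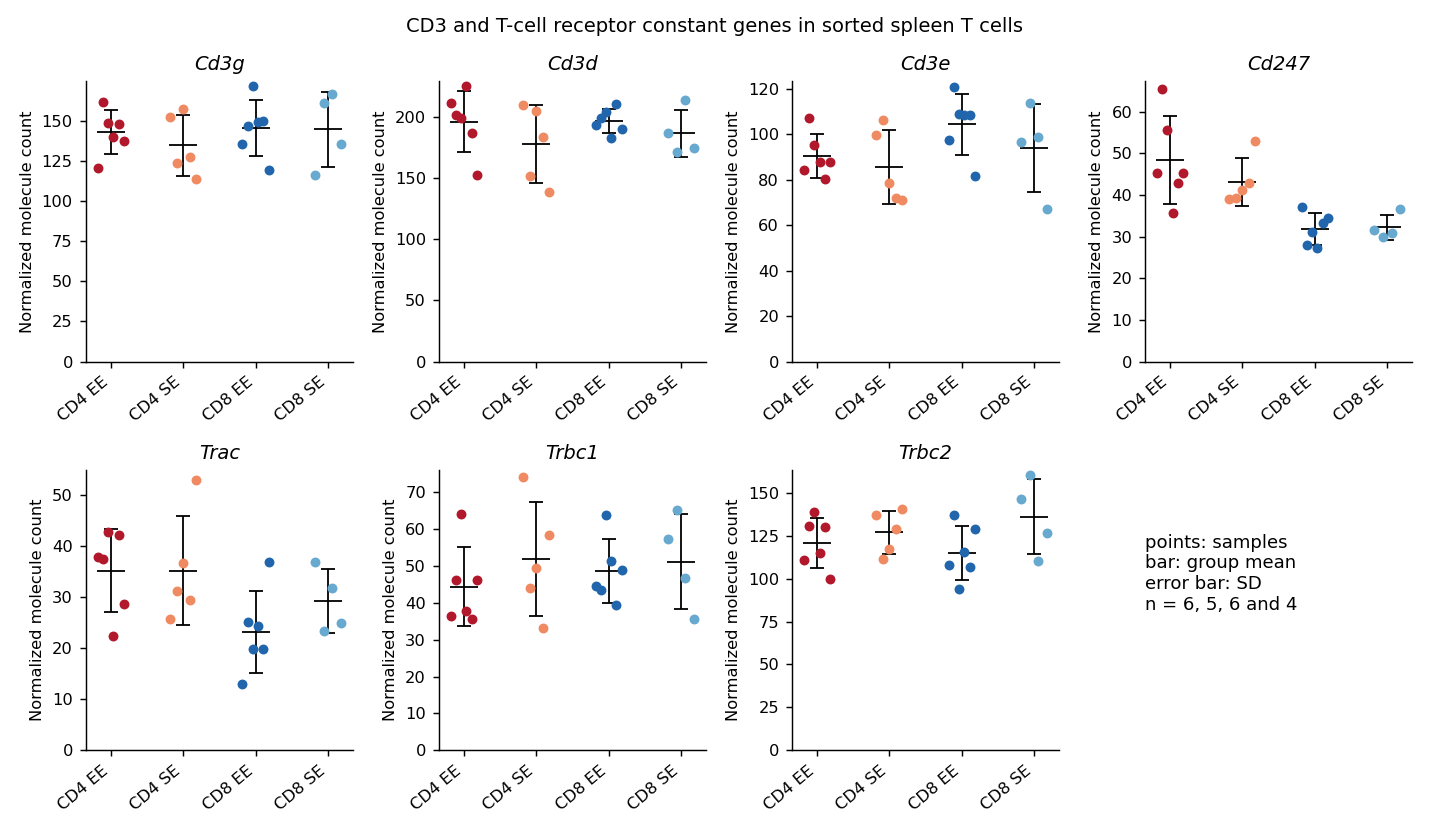
Normalized molecule count (vertical axis, from 0) of each of the 7 genes in each sample, by population and environment. Points are samples, and bars are group means with SD (n = 6, 5, 6 and 4). For Cd247, 10 of 11 CD4+ samples lie above every CD8+ sample, and the groups overlap for the other genes.

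Trac, the alpha constant gene, had the next largest difference but did not pass the test. Its counts ranged from 22.3 to 42.8 (median 37.7) in CD4+ EE samples and were 25.7, 29.4, 31.1, 36.6 and 52.9 in CD4+ SE samples. In CD8+ EE samples they ranged from 13.0 to 36.9 (median 22.0), and the CD8+ SE samples were at 23.3, 25.0, 31.8 and 36.8. The populations overlapped widely, with 5 of 11 CD4+ samples above every CD8+ sample. Means were 35.2 ± 8.85 (SD, n = 11) and 25.6 ± 7.65 (SD, n = 10). The log2 difference was 0.43 (SE 0.16, 95% interval 0.11 to 0.74, unadjusted p = 0.00897, adjusted p = 0.132, limma with Benjamini-Hochberg). Among the 9 mice with both populations the CD4+ sample was higher in 5 (4 EE mice and 1 SE mouse) and lower in 4, from -0.50 to 1.47 on the log2 scale. In the CD4+ sample with the lowest B-cell sum Trac was at 25.7, inside the CD8+ range. So was every other CD4+ sample that did not lie above all CD8+ samples. The part of B-cell RNA in the Trac difference was not tested.

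The alpha variable genes are part of rearranged alpha transcripts too, but their molecules were counted apart from those of Trac. Summed over the 100 Trav genes measured, they came to 237 ± 30.0 (SD, n = 11) in CD4+ and 168 ± 30.1 (SD, n = 10) in CD8+ samples, a ratio of 1.41, beside a ratio of 1.38 for Trac. Within the environments the Trav ratio was 1.46 (EE) and 1.34 (SE), and that of Trac was 1.52 (EE) and 1.20 (SE). The ratios of the variable genes were not tested. For the beta chain, the 22 Trbv genes summed to 318 ± 36.1 (SD, n = 11) and 292 ± 32.9 (SD, n = 10), a ratio of 1.09. The Trav sum was a median of 6.49 times the Trac count in CD4+ and 7.06 times in CD8+ samples, and the Trbv sum 1.84 and 1.74 times that of Trbc1 and Trbc2 together. The molecule tag sat in the template-switching oligonucleotide, at the 5′ end of the cDNA, and a rearranged receptor transcript begins in its variable gene. The constant gene counts are therefore not the number of receptor transcripts, and what share of them they hold was not tested.

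The 3 CD3 genes of chromosome 9 showed no detected difference. Cd3g, the gamma chain, ranged from 114 to 162 in CD4+ samples and from 116 to 172 in CD8+ samples. Cd3d, the delta chain, ranged from 139 to 225 and from 171 to 214. Cd3e, the epsilon chain shared by both dimers, ranged from 71.0 to 107 and from 67.3 to 121. The ranges overlapped in each case, although 5 of 10 CD8+ samples had more Cd3e than any CD4+ sample. Log2 differences, CD4+ minus CD8+, were -0.06 for Cd3g (95% interval -0.23 to 0.11), -0.05 for Cd3d (-0.21 to 0.11) and -0.17 for Cd3e (-0.36 to 0.03). Their adjusted p-values were 0.810, 0.842 and 0.469 (limma, Benjamini-Hochberg). The intervals leave room for a CD4+ level of Cd3e between 0.777-fold and 1.02-fold the CD8+ level. With the mouse as a block the log2 differences were -0.06 for Cd3g, -0.12 for Cd3d and -0.06 for Cd3e. Of the 9 mice with both populations, 4 had more Cd3e in the CD4+ sample (1 EE mouse and 3 SE mice) and 5 had less. Summed over the 4 CD3 genes, counts were 461 ± 46.3 (SD, n = 11) in CD4+ and 470 ± 36.6 (SD, n = 10) in CD8+ samples.

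The beta constant genes showed no detected difference either. Trbc1 ranged from 33.2 to 74.1 in CD4+ and from 35.6 to 65.2 in CD8+ samples, a log2 difference of -0.07 (95% interval -0.33 to 0.19, adjusted p = 0.869, limma with Benjamini-Hochberg). Trbc2 ranged from 99.6 to 141 and from 94.0 to 160, a log2 difference of -0.01 (-0.18 to 0.17, adjusted p = 0.986, limma with Benjamini-Hochberg). For Trbc2 this interval corresponds to 0.880-fold to 1.12-fold. In no pair of groups next to each other in the order of means did the samples of Cd3g, Cd3d, Cd3e, Trac, Trbc1 or Trbc2 separate.

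**Figure D3:**
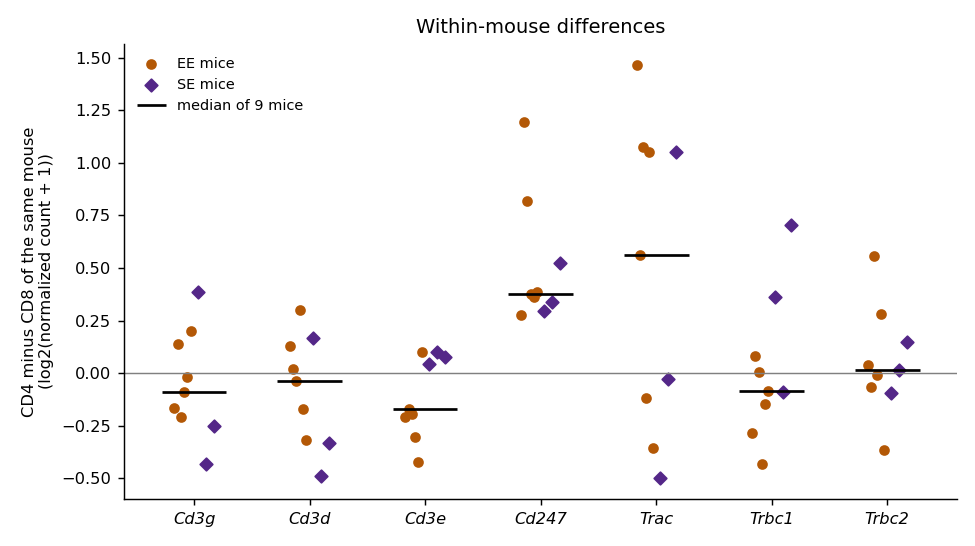
Difference between the CD4+ and the CD8+ sample of the same mouse on the log2(normalized count + 1) scale, for each gene and each of the 9 mice with both (circles, 6 EE mice; diamonds, 3 SE mice; lines, medians). All 9 points of Cd247 lie above 0, from 0.28 to 1.19, and those of the other genes lie on both sides.

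Shares within a sample do not depend on its size factor and were compared for the pair of beta constant genes and for the divergent pair of CD3 genes. Trbc1 made up 27.6% ± 4.50 (SD, n = 11) of the Trbc1 and Trbc2 counts in CD4+ T cells and, over the CD8+ samples, 28.8% ± 4.91 (SD, n = 10). The lowest sample, a CD4+ SE one, was at 20.5% (exact Clopper-Pearson 95% interval 14.7 to 27.3) and the highest, a CD8+ EE one, at 40.5% (33.0 to 48.3). The ranges of the populations overlapped widely. The difference of -1.22 percentage points had a two-sided permutation p of 0.563 (adjusted p = 0.764 over the 6 tests of both shares). Cd3g made up 42.7% ± 3.18 (SD, n = 11) of the Cd3g and Cd3d counts in CD4+ and 42.9% ± 3.13 (SD, n = 10) in CD8+ samples, a difference of -0.168 percentage points (permutation p = 0.906, adjusted p = 0.906). These intervals cover counting error only, and the division of the beta genes carries the uncertainty of exon 1.

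**Figure D4:**
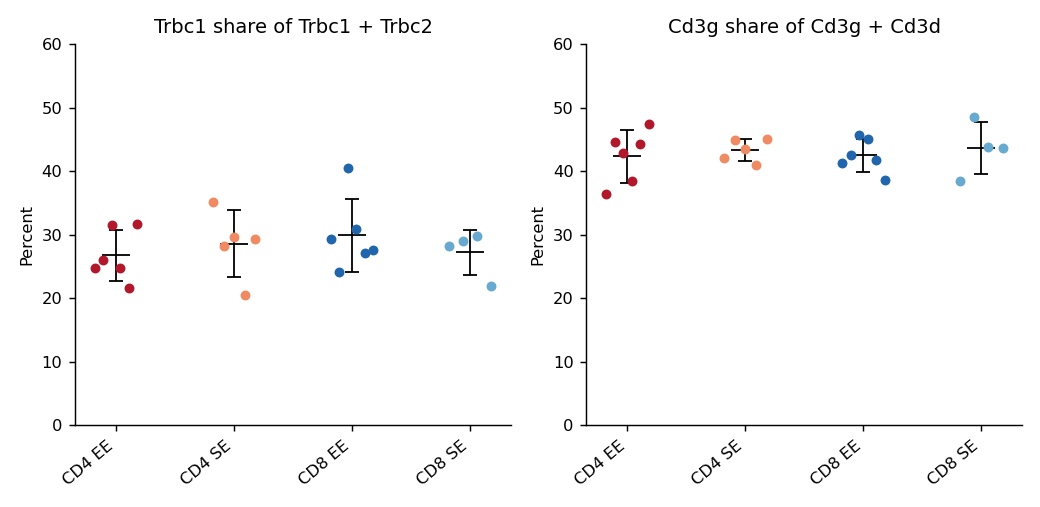
Share of Trbc1 in Trbc1 plus Trbc2 (left) and of Cd3g in Cd3g plus Cd3d (right), in percent of the normalized counts, in each sample by group, with group means and SD. The Trbc1 share runs from 20.5% to 40.5% over the samples, with overlap between all 4 groups, and the Cd3g share lies near the same level in each group.

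The next comparisons asked whether housing changed these genes within each population. None of the 7 differed between EE and SE in CD4+ T cells, where 1 of 7939 genes did (0.0126%), nor in CD8+ T cells, where 0 of 7840 did (0%; limma, Benjamini-Hochberg; 413 genes had an unadjusted p under 0.05, and edgeR and DESeq2 also called 0). Of the 7 genes, 0 had an unadjusted p under 0.05 in either population, and edgeR and DESeq2 called 0 of them. The median EE minus SE difference of the 7 was 0.09 in CD4+ T cells, and that of all genes tested was 0.00. In CD8+ T cells these medians were -0.02 and -0.01.

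In CD4+ T cells the differences between EE and SE ran from -0.20 for Trbc1 (95% interval -0.58 to 0.18) to 0.15 for Cd3d (-0.10 to 0.39) on the log2 scale. With 1 sample left out, Trbc1 lay between -0.34 and -0.06 and Cd3d between 0.06 and 0.22. The 4 CD3 genes had means of 143 ± 13.7 (EE, SD, n = 6) and 135 ± 19.0 (SE, SD, n = 5) for Cd3g, 196 ± 25.0 and 178 ± 31.7 for Cd3d, 90.5 ± 9.55 and 85.6 ± 16.3 for Cd3e, and 48.4 ± 10.5 and 43.1 ± 5.71 for Cd247. Each of these gaps was smaller than the SD of its EE or SE samples. Trac was at 35.2 ± 8.09 and 35.2 ± 10.7, Trbc1 at 44.4 ± 10.7 and 51.8 ± 15.5, and Trbc2 at 121 ± 14.8 and 127 ± 12.5. All adjusted p-values were 0.912 or higher (limma, Benjamini-Hochberg).

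In CD8+ T cells the gene nearest to the threshold was Trbc2. It ranged from 94.0 to 137 (median 112) in EE samples and was at 110, 127, 146 and 160 in SE samples, so that 3 of 6 EE samples lay below all SE samples and 2 of 4 SE samples above all EE samples. Means were 115 ± 15.8 (SD, n = 6) and 136 ± 21.8 (SD, n = 4), a log2 difference of -0.24 (95% interval -0.47 to 0.00, unadjusted p = 0.0515, adjusted p = 0.938, limma with Benjamini-Hochberg). Trac was at 23.1 ± 8.01 (SD, n = 6) with EE, and with SE at 29.2 ± 6.26 (SD, n = 4), a log2 difference of -0.37 (-0.83 to 0.10). With 1 sample left out this Trac difference lay between -0.51 and -0.22. In the full fit the remaining genes ran from -0.05 for Trbc1 to 0.16 for Cd3e, which was 0.01 without CD8+ SE replicate 6 and 0.26 without CD8+ SE replicate 2. For Cd247 the means were nearly the same, 31.8 ± 3.85 (SD, n = 6) and 32.2 ± 2.97 (SD, n = 4), and the interval of -0.40 to 0.36 spans changes of 0.757-fold to 1.28-fold.

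Whether housing acted differently in the populations was tested as an interaction. It was passed by 0 of the 7 genes and by 0 of 7938 genes in all (0%; limma, Benjamini-Hochberg; 393 had an unadjusted p under 0.05, none of the 7 among them, and edgeR and DESeq2 called 0). The largest value of the 7 in this fit was that of Trac, 0.38 on the log2 scale (95% interval -0.25 to 1.01). With the mouse as a block Trac was at 0.44, and Trbc1 moved from -0.14 to -0.47. Neither passed the adjusted threshold. The Trbc1 share differed between EE and SE by -1.84 percentage points in CD4+ (exact permutation p = 0.502) and 2.68 in CD8+ T cells (exact permutation p = 0.476). With 1 sample left out these ran from -3.86 (without CD4+ SE replicate 5) to -0.199 (without CD4+ SE replicate 1) and from 0.556 (without CD8+ EE replicate 3) to 3.84 points (without CD8+ EE replicate 2), so single libraries set their size. The Cd3g share differed by -0.979 (exact permutation p = 0.636) and -1.14 points (exact permutation p = 0.600), and all 4 adjusted p-values were 0.764.

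**Figure D5:**
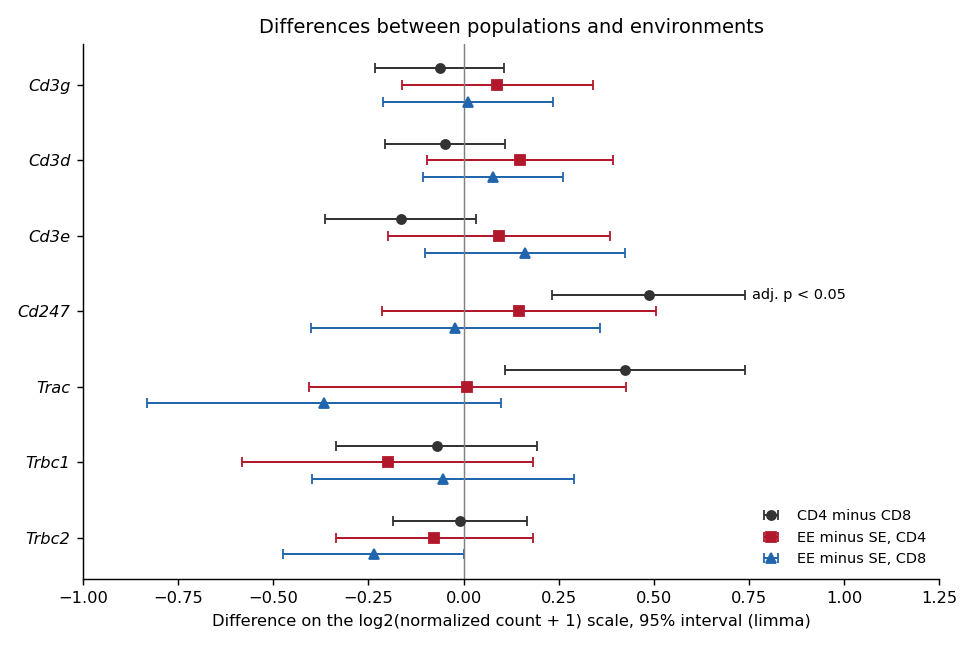
Log2 difference (horizontal axis) with its 95% interval from limma for each gene, between CD4+ and CD8+ samples (circles), EE and SE in CD4+ samples (squares) and EE and SE in CD8+ samples (triangles). The CD4+ minus CD8+ difference of Cd247, 0.49, is the one marked as past the adjusted threshold, and the environment intervals of all 7 genes reach 0.

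How far the genes varied among samples of one group could be set against counting error. Pooled over the 4 groups, the variance was 1.19 times the counting variance for Cd247, although its groups were unlike, with an SD of 10.5 at a mean of 48.4 in CD4+ EE samples and of 3.85 at a mean of 31.8 in CD8+ EE samples. For the other 6 it was between 2.16 (Trbc2) and 2.99 (Trbc1), where 2727 genes with a mean above 10 had a median of 1.68 and quartiles of 1.29 and 2.27. Within-group coefficients of variation ran from 11.9% for Cd3d to 27.7% for Trac. With group means removed, the CD3 genes of chromosome 9 had Pearson correlations over the 21 samples of 0.48 (Cd3e with Cd3g), 0.44 (Cd3d with Cd3g) and 0.16 (Cd3d with Cd3e). Cd247 had -0.12 to -0.23 with these 3 and 0.30 with Trac. Such values share the size factor of each sample and describe these libraries only.

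The genes whose sample-to-sample pattern was most like the summed CD3 genes were found by the same correlation among 2720 genes with a mean above 10. They were the gene listed as sept-01 (0.80), X2410015M20Rik (0.74), Ptp4a3 (0.72), Myl12b (0.70) and Sp140 (0.69), over 21 samples. They are the highest of many values and are given as a description.

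The other genes of the receptor's first signalling steps were taken from a list of 35, of which 26 were measured and 24 tested between the populations. Of these 24, 6 were higher in CD4+ T cells, 3 were lower and 15 did not pass the test, beside 4.40% of all genes tested, and the median was 0.13 on the log2 scale, beside -0.01 over all genes. Of these 9, the 3 coreceptor genes Cd4, Cd8a and Cd8b1 mark the sort itself, so their calls follow from the gate. The other higher ones were Trat1 (1.17), a transmembrane adaptor that associates with the receptor, Fyn (0.52), a Src family kinase, Cd5 (1.20) and Cd6 (0.79), surface proteins that tune receptor signals, and Cd28 (1.05), the costimulatory receptor. Sla2, an adaptor known to dampen receptor signalling, was lower (-0.80, adjusted p = 0.0104, limma with Benjamini-Hochberg). Of 14 transcription factors linked to receptor and CD3 genes, 3 passed the test and 11 did not, with a median of 0.08 on the log2 scale beside -0.01 over all genes. Runx1 (1.11) and Zbtb7b (3.28), the CD4 lineage factor ThPOK, were higher in CD4+ T cells and Runx3 (-1.72), a CD8 lineage factor, was lower. In neither environment comparison did any gene of these lists pass the test, where 1 of 7939 genes in all (0.0126%) did in CD4+ and 0 of 7840 (0%) in CD8+ T cells. Trdc, the constant gene of the gamma-delta receptor, was detected in 5 of 21 samples with at most 4 molecules.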

How the data were processed

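RNA of sorted cells was reverse transcribed with a template-switching oligonucleotide that carried a unique molecular identifier (UMI) and sequenced on an Ion Proton instrument. Per the study's methods, the authors trimmed the reads (cutadapt), discarded short ones and those without the UMI pattern, aligned the rest to mm10 (STAR 2.4.0a, named in the submitters' processing notes), counted UMIs per gene with Drop-seq tools and an Ensembl GRCm38 model, and normalized with DESeq2. The methods give default counting parameters without spelling out the settings for strand or for reads with several matches. The deposited signal is a molecule count divided by the size factor of the sample, in 12994 genes and 21 samples, and 100% of the values gave whole molecules within 0.01. No column lacked a sample.

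Samples were grouped by the labels. The main test was limma 3.58.1 (R 4.3.3) with a trend on log2(normalized count + 1) for genes with a mean above 2, with Benjamini-Hochberg adjustment over all genes and a threshold of 0.05. The population fit held all 21 samples, and the environment fits held 1 population each. Because the values are on the log2(value + 1) scale, changes of low genes are understated. Alternatives were a pseudocount of 0.5, no filter, a mean above 10, the same total in each sample, all samples in the environment fits, edgeR 4.0.16 (quasi-likelihood) and DESeq2 1.42.0 on the recovered molecules, a block and each sample left out. Shares were compared by permutation tests (exact, or 1e+05 resamples with 10 or more samples a group), two-sided. The tests were tried on simulated data. Sums, shares and correlations used Python 3.11.15, NumPy 2.4.6 and SciPy 1.17.1.

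CD4+ and CD8+ samples of the same mouse are paired by the labels. Their deviations from the group means correlated by -0.0149 to 0.0354 over the 9 mice. In the sample titles the serial numbers of such a pair follow each other, except for CD8+ SE replicate 6. The serial number of that library lies outside the run of the others, and the labels give no reason. Replicate libraries differed beyond sampling noise in every pair. Environments shared animal numbers only by name. Separate mice are replicates, but 1 cage per environment means that p-values between environments measure the spread between these mice. Precision rests on the molecules per sample (145546 to 221454) and for a gene on its own molecules.

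The 7 genes, the signalling, regulator and marker lists and the tests were chosen with earlier results of these data known. Named genes are the 7, any list gene that passed a test, and the 5 genes most correlated with the summed CD3 genes. The sample label for the number of cells repeats the last part of the title and was not used. Promoter sequences are from RefSeq (GRCm38.p6), where 4 of 7 genes matched, and the beta constant sequences from GENCODE vM21.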

Additional observations from a re-analysis of the deposited data

Results flagged for a closer look

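In 2 of 36 groups checked (1.8 are given by chance), 1 sample lay far from the others of its group. Cd247 in CD4+ SE replicate 6 was at 52.9 (47 molecules), and the other 4 CD4+ SE samples were at 39.1 to 42.7. Trbc1 in CD4+ EE replicate 3 was at 64.1 (60 molecules), and the other 5 CD4+ EE samples were at 35.7 to 46.1. With any 1 sample left out, Cd247 still passed the test between populations.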

How the results depend on the processing

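The count of genes past the test, 1 between populations and 0 in the other comparisons, was the same under every alternative and with each sample left out. Over the alternatives the Cd247 difference between populations was 0.48 to 0.51 (adjusted p 0.00480 to 0.0419) and with 1 sample left out 0.44 to 0.53 (adjusted p 0.00465 to 0.0292). Trac stayed above the threshold, with adjusted p-values of 0.0524 to 0.271 with 1 sample left out. Of 161 log2 differences of the 7 genes under alternatives 154 kept direction and side of the threshold and 7 changed sign, as did 1 of 8 share differences. None of the differences that changed sign had passed the test. With the replicate block (the mouse between populations, the animal number between environments) the log2 differences were 0.0916 for Trbc1 and 0.0474 for Trbc2 between populations, -0.0149 for Trac in CD4+, and 0.0146 for Cd247 and -0.0128 for Cd3g in CD8+ T cells between environments, and the Cd3g share differed by 0.568 points between populations. With the same total in each sample, Trbc2 was at 0.00991 between populations and Cd3g at -0.00123 between environments in CD8+ T cells. The block changed no call of the 7 genes. With 1 sample left out, 25 of 294 log2 differences and 9 of 84 share differences changed sign, none of them past the threshold. Between populations these were Trbc1 (-0.150 to 0.00159), Trbc2 (-0.0554 to 0.0334), the Trbc1 share (-1.99 to 0.0786 points) and the Cd3g share (-0.668 to 0.470 points). Between environments they were Trac in CD4+ (-0.0874 to 0.166), Cd247 (-0.0669 to 0.0383), Cd3g (-0.0876 to 0.0842) and Trbc1 (-0.214 to 0.0712) in CD8+, and the Cd3g share in CD4+ (-2.01 to 0.209 points) and CD8+ T cells (-2.86 to 0.485 points). Among differences that kept their sign, single samples could still move the size by over 1.5 times, as for Cd3e in CD8+ T cells between environments (0.0106 to 0.260). Over all genes, the count called between populations was 349 and fell to 216 with a mean above 10, where fewer genes (2727) were tested. Between environments in CD4+ T cells it was 1, with 2 by edgeR, 3 without a filter, and 0 with a pseudocount of 0.5, a mean above 10, the block or all samples in the fit. In CD8+ T cells it was 0, with 3 without a filter and 2 with the block. The causes of the sign changes were not tested. Limits are the molecules per gene, 14 to 47 for Trac and 28 to 61 for Cd247, the 4 CD8+ SE samples, and the shared exon 1 of the beta constant genes.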
